A study of Homo sapiens with 12 samples.

Results

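The response of endothelial cells carrying estrogen receptor alpha to 16 h of 10 nM estradiol was measured on 6 of the 12 arrays of a study in EA.hy926 cells. These were the 3 arrays of receptor cells given estradiol and the 3 arrays of receptor cells given ethanol vehicle, each estradiol array paired with the vehicle array of the same replicate number. EA.hy926 is a human line made by fusing umbilical vein endothelial cells with a carcinoma line, and per the labels it does not express the receptor. Receptor cells had been stably transfected with the plasmid pCMV3-ERalpha, and control cells, the remaining 6 arrays (3 with estradiol and 3 with vehicle), with the backbone pCDNA 3.1. Both had been selected with puromycin, single colonies had been picked, and the cells were kept in serum-free medium for 24 h before the treatment. The labels call the 3 samples of each group biological replicates. They do not say whether a replicate number stands for a colony or for a culture of pooled cells, so the p-values measure the spread between these samples only. Genes were tested when a probe was detected on at least 3 of the 6 receptor arrays, which left 13800 of the 30934 named genes on the array.

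Estrogen receptor alpha is a transcription factor that binds estradiol, and with it attaches to DNA at estrogen response elements or through other factors such as Sp1 and AP-1, raising or lowering nearby genes. In breast and uterine cells its known targets include growth regulators and secreted proteins. In the vessel wall estradiol is known for acting on nitric oxide and prostanoid production, coagulation and the response to injury. Levels below are normalized log2 intensities, and a difference is estradiol minus vehicle on that scale. A gene was called when its Benjamini-Hochberg adjusted p from limma's paired test was under 0.05.

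Between 18441 and 19747 probes were detected on an array, and the receptor arrays separated by replicate number. Deviations from the group mean correlated at 0.776, 0.405 and 0.693 across the 13800 genes between estradiol and vehicle arrays of the same number. Between different numbers the correlations were -0.65 to 0.004. Deviations cancel out within a group, so positive same-numbered values by themselves draw the others downward. By the same-numbered values the numbers paired the receptor arrays, most weakly for replicate 2. In control cells the same-numbered correlations were 0.09, 0.039 and 0.117. The probe for ESR1, the receptor's own gene, was not detected on any of the 12 arrays, and the files do not say whether it matches the transfected sequence. The receptor's level was therefore not measured here, while the labels report its protein by western blot. Of 30 endothelial marker genes 22 were detected on all 6 receptor arrays and 4 on none (FLT1, CLDN5, EMCN and TAL1). Of 13 epithelial markers 6 were detected on all 6 receptor arrays and 4 on none, the epithelial cadherin CDH1 among these. Of 16 mesenchymal and smooth muscle markers 5 were detected on all 6 and 9 on none. Of 12 leukocyte markers 4 were detected on all 6 and 4 on none, the defining leukocyte gene PTPRC among these. Summed linear levels of the 24 endothelial markers tested spanned 34300 to 47100 with estradiol and 35100 to 46400 with vehicle. Those of the 8 epithelial markers tested spanned 4850 to 7910 with estradiol and 4880 to 7840 with vehicle. Those of the 6 mesenchymal and smooth muscle markers tested spanned 20000 to 20400 with estradiol and 19600 to 21500 with vehicle. The sums overlapped between treatments for each of these lists. In these bulk samples, fewer cells expressing a gene and less RNA per cell cannot be told apart.

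Estradiol raised 14 genes in receptor cells and lowered none at the threshold. The genes encode secreted and matrix proteins (VASN, OLFML3, CCN5, IGFBP3), signalling enzymes and activators (RASGRF1, INPP4B), metabolic and sugar-transferring enzymes (SMOX, DHRS3, B4GALT1), proteins of coagulation and prostaglandin synthesis (THBD, PTGS2), an immune receptor (HAVCR2) and a pair of keratins (KRT19, KRT15). The called genes made up 0.101% of the genes tested. All 14 were higher in 3 of 3 pairs, which a call on 3 pairs favours (13.2% of all genes were), and 12 of them had no overlap between the estradiol and vehicle arrays. Over all genes, 380 lay without overlap on the higher side (2.75%) and 331 on the lower side (2.4%). At an unadjusted p under 0.05, 1036 genes passed (7.51%), 531 of them higher (3.85%) and 505 lower (3.66%). In size the response leaned upward, with 15 genes at least 1 log2 higher and 0 at least 1 log2 lower.

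**Figure D1:**
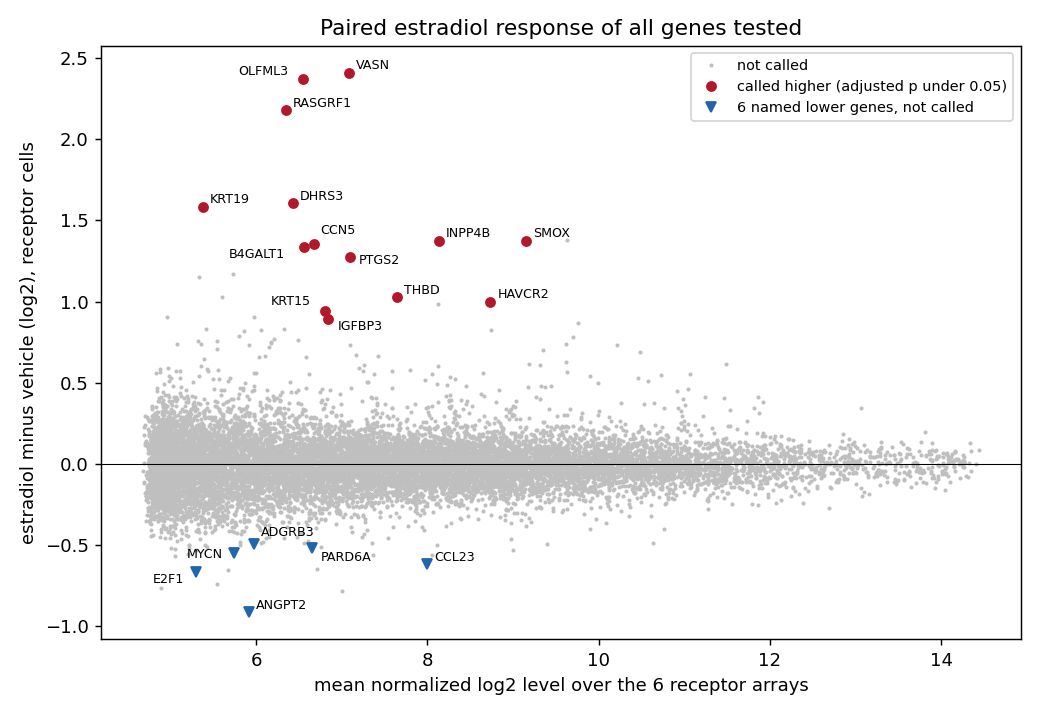
Difference between estradiol and vehicle (log2, vertical axis) against the mean normalized log2 level over the 6 receptor arrays (horizontal axis) for the 13800 genes tested, with called genes in red and the 6 named lower genes that were not called as blue triangles. The 14 called genes lie between 0.89 and 2.41, and the lowest gene, ANGPT2, at -0.91.

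RefSeq start-site sequence (GRCh38.p14) was at hand for 7 of the 14 called genes, VASN, OLFML3, DHRS3, INPP4B, B4GALT1, PTGS2 and IGFBP3. Each window, 1 per gene, ran from 250 bases before the start to 50 bases after it and was searched on both strands. The full estrogen response element, GGTCANNNTGACC, was in 0 of the 7 windows and in 0.0659% of 27305 windows of the same length. A single arm of that element, GGTCA, was in VASN and IGFBP3, and in 37.7% of all windows. The Sp1 box GGGCGG was in VASN (4 copies), B4GALT1 (7), IGFBP3 (2), OLFML3 (1) and DHRS3 (1), and in 44.6% of all windows. The AP-1 site TGAGTCA was in none of the 7 and in 4.92% of all windows, and a TATAAA box was in PTGS2 alone among the 7 and in 12% of all windows. The INPP4B window held none of these motifs. The GGTCA search also counts the arms of the full element. The searches say nothing on binding outside these windows or on any other start site of a gene. The 250 bases before the start are shown for the secreted-protein genes VASN, OLFML3 and IGFBP3 and for the cyclooxygenase gene PTGS2, since these carry each motif found. Capitals mark the element arm, the Sp1 box and the TATAAA box on either strand. The VASN stretch is chr16:4371598-4371847 on the plus strand, that of OLFML3 chr1:113979224-113979473 on the plus strand, that of IGFBP3 chr7:45921273-45921522 on the minus strand, and that of PTGS2 chr1:186680424-186680673 on the minus strand.
VASN: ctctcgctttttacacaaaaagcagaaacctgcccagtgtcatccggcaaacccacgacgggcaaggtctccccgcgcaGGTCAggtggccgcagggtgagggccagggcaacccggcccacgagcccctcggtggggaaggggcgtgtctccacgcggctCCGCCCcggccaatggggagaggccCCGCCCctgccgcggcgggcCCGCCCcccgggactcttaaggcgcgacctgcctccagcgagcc
OLFML3: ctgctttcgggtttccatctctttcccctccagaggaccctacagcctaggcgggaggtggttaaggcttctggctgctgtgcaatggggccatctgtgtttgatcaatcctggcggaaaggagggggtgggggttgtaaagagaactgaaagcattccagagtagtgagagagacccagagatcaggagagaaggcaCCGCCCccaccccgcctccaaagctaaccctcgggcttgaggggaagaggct
IGFBP3: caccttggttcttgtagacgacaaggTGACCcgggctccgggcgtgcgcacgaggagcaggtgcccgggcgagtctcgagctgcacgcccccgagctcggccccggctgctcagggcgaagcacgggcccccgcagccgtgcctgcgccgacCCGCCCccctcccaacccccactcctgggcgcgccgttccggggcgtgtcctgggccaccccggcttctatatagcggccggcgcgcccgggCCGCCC
PTGS2: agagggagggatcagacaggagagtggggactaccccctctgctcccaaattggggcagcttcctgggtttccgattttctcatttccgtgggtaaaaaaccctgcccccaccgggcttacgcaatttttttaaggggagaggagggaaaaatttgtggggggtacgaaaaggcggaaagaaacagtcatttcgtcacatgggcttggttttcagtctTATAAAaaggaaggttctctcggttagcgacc
In VASN the GGTCA arm began 171 bases before the start and 3 Sp1 boxes began 89, 64 and 44 bases before it, with the other box after the start. In IGFBP3 the arm began 224 bases before the start. The TATAAA of PTGS2 began 32 bases before its start.

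Among the secreted and matrix proteins, VASN encodes vasorin, a membrane protein that is shed and binds TGF-beta. Its level was 8.375, 8.197 and 8.289 in estradiol replicates 1, 2 and 3, against 5.237, 6.090 and 6.308 in the vehicle arrays. The estradiol arrays sat close together, far above vehicle arrays that differed among themselves, so that the pair differences were 3.14, 2.11 and 1.98. VASN rose by 2.41 ± 0.21 log2 (SE of the paired fit, 3 pairs), 5.31-fold (limma, adjusted p = 0.0115). OLFML3, a secreted glycoprotein of the matrix, had 8.096, 7.581 and 7.524 with estradiol and 6.056, 5.374 and 4.653 with vehicle. Replicate 1 was highest under both treatments, and vehicle replicate 3 was not detected. OLFML3 rose by 2.37 ± 0.16 log2, 5.18-fold (limma, adjusted p = 0.00538).

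CCN5, listed on the array as WISP2, is a matricellular protein known as an estrogen-induced gene of breast cells. Its level was 7.547, 7.176 and 7.323 with estradiol and 5.805, 6.015 and 6.154 with vehicle, without overlap. It rose by 1.36 ± 0.14 log2, 2.56-fold (limma, adjusted p = 0.0187). IGFBP3 binds insulin-like growth factors in the blood and the tissue. Its level was 6.717, 7.658 and 7.492 with estradiol and 5.712, 6.708 and 6.771 with vehicle. Here the groups overlapped, since replicate 1 was low under both treatments and its estradiol array lay below vehicle replicate 3. Within pairs all 3 differences were positive, and IGFBP3 rose by 0.89 ± 0.10 log2, 1.86-fold (limma, adjusted p = 0.0366). Another IGFBP3 probe differed by 0.54, and the call was lost when probes were averaged (adjusted p = 0.129).

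RASGRF1 exchanges GDP for GTP on Ras and so activates it. Its level was 7.492, 7.231 and 7.587 with estradiol and 5.466, 5.303 and 5.009 with vehicle. The estradiol arrays all lay well above every vehicle array. RASGRF1 rose by 2.18 ± 0.14 log2, 4.52-fold (limma, adjusted p = 0.00538). A different RASGRF1 probe was not detected on any receptor array. INPP4B removes a phosphate from a lipid product of phosphoinositide 3-kinase and so dampens signalling to AKT. Its level was 8.963, 8.854 and 8.637 with estradiol and 7.209, 7.571 and 7.549 with vehicle. No arrays overlapped, and the pair difference was widest in replicate 1. INPP4B rose by 1.37 ± 0.14 log2, 2.59-fold (limma, adjusted p = 0.0187).

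SMOX oxidises spermine to spermidine and releases hydrogen peroxide. Its level was 9.970, 9.658 and 9.884 with estradiol and 8.382, 8.403 and 8.606 with vehicle, with both groups tight and apart. SMOX rose by 1.37 ± 0.11 log2, 2.59-fold (limma, adjusted p = 0.0112), and 2 further probes of the gene differed by 0.77 and 1.36. The probe at 0.77 was dim and detected on 3 of the 6 receptor arrays. DHRS3, a reductase that turns retinal back into retinol, had 7.931, 6.620 and 7.139 with estradiol and 6.174, 5.397 and 5.304 with vehicle. Replicate 1 was highest in both groups, and no estradiol array fell among the vehicle arrays. DHRS3 rose by 1.61 ± 0.14 log2, 3.04-fold (limma, adjusted p = 0.0112). B4GALT1, which adds galactose to the sugar chains of glycoproteins, had 7.522, 7.319 and 6.843 with estradiol and 5.995, 5.945 and 5.737 with vehicle. It rose by 1.34 ± 0.11 log2, 2.52-fold (limma, adjusted p = 0.0112).

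THBD encodes thrombomodulin, the endothelial surface protein that binds thrombin and turns it to activating protein C. Its level was 8.172, 8.190 and 8.113 with estradiol and 7.030, 7.301 and 7.061 with vehicle, both narrow ranges without overlap. THBD rose by 1.03 ± 0.10 log2, 2.04-fold (limma, adjusted p = 0.0187). PTGS2, the inducible cyclooxygenase that makes prostaglandin precursors, had 8.333, 7.437 and 7.428 with estradiol and 7.329, 6.191 and 5.853 with vehicle. Replicate 1 was highest in both groups, and its vehicle array lay only just under the lower estradiol arrays. PTGS2 rose by 1.28 ± 0.13 log2, 2.42-fold (limma, adjusted p = 0.0187), and a dimmer PTGS2 probe differed by 0.52.

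HAVCR2, an inhibitory receptor best known on T cells, had 9.660, 8.967 and 9.075 with estradiol and 8.491, 8.046 and 8.173 with vehicle. It rose by 1.00 ± 0.10 log2, 2.00-fold (limma, adjusted p = 0.0211). KRT19 and KRT15 are keratins, filament proteins of epithelial cells. KRT19 had 7.035, 5.872 and 5.595 with estradiol and 4.877, 4.502 and 4.370 with vehicle. It was detected on 1 of the 3 vehicle arrays, so the vehicle mean rests mostly on values at background, and its estradiol arrays spread widely above them. KRT19 rose by 1.58 ± 0.18 log2, 3.00-fold (limma, adjusted p = 0.0290). KRT15 had 7.761, 6.819 and 7.234 with estradiol and 6.851, 5.977 and 6.152 with vehicle, so that estradiol replicate 2 lay just under vehicle replicate 1. It rose by 0.94 ± 0.10 log2, 1.93-fold (limma, adjusted p = 0.0231). Of 8 genes tested in the epithelial list, which does not hold KRT15, KRT19 was the called one, EPCAM differed by 0.26, and the list's median difference was 0.02.

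**Figure D2:**
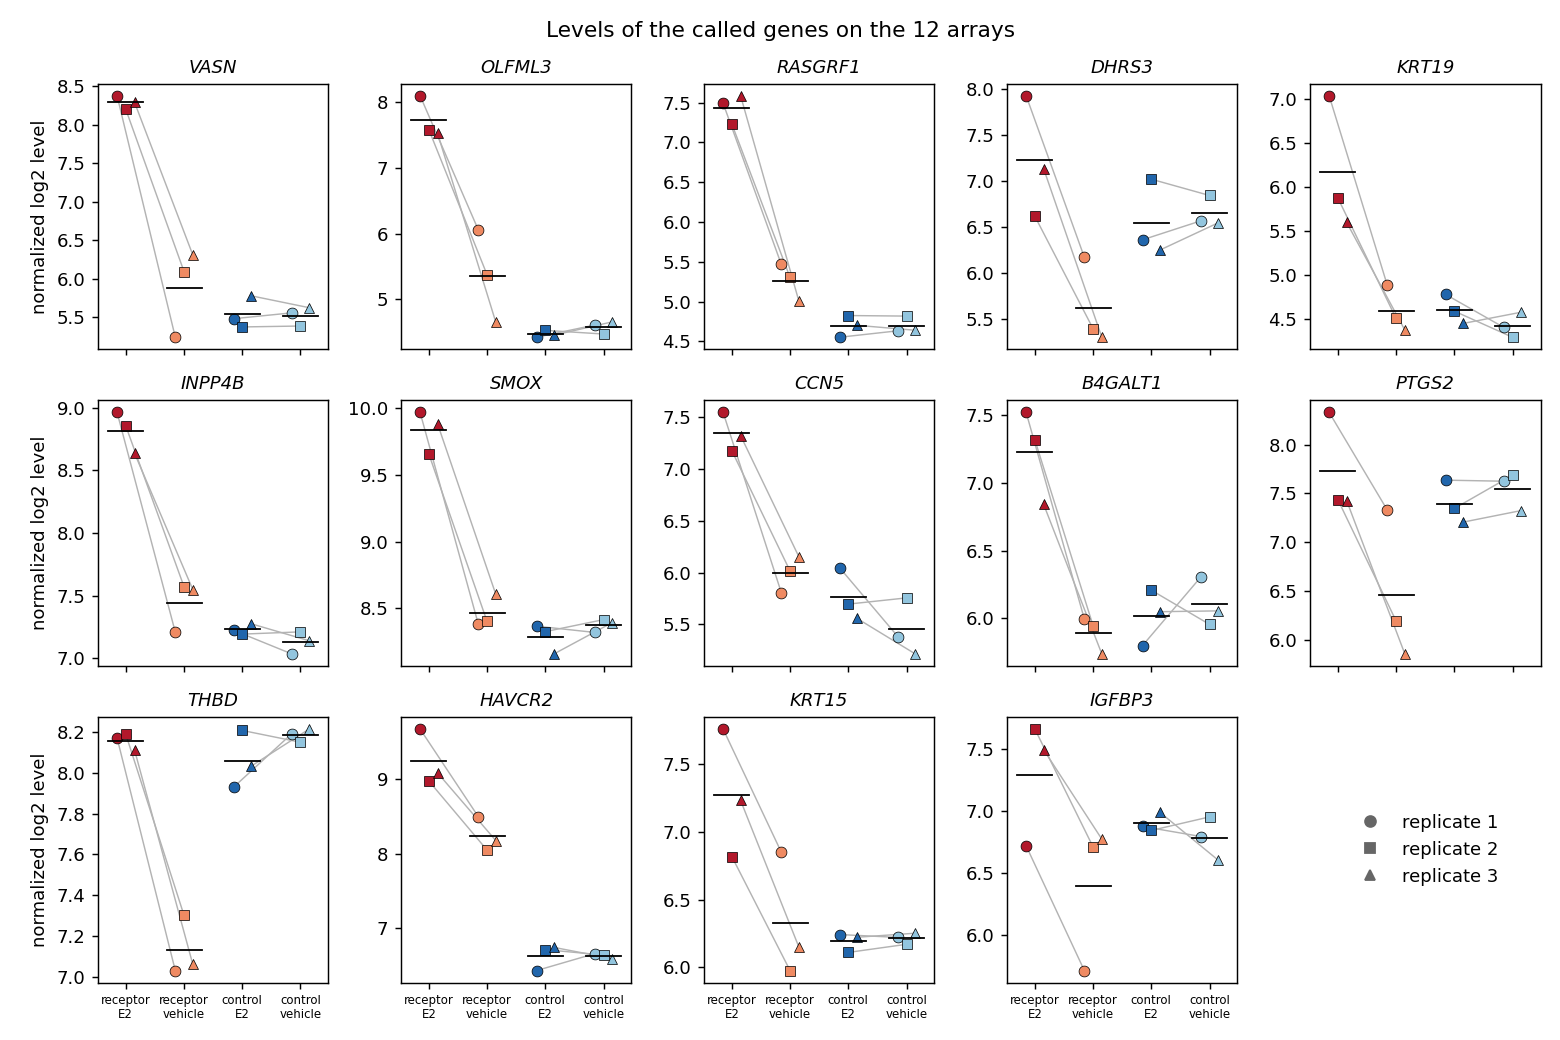
Normalized log2 level (vertical axis of each panel, scaled per gene) of the 14 called genes on the 12 arrays, with symbols for replicates 1 to 3, lines joining same-numbered arrays and a bar at each group's mean. Receptor cells with estradiol lie above receptor cells with vehicle in every joined pair, while the control means differ by -0.15 to 0.32.

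The number of calls depended on the pairing and on single replicates. With the replicate numbers ignored, 1 of the 14, RASGRF1, kept its call. The 14 calls were all lost without the arrays of replicate 2 (highest adjusted p = 0.26), while their differences there were 0.86 log2 or more. Without replicate 1 the count was 15 and without replicate 3 it was 23. With the spread taken from all 12 arrays, 46 genes were called higher (0.333%), all 14 among them, and 1 lower (0.00725%). The spread between pairs was larger for dim genes, with a median SD of the pair differences of 0.249 log2 in the 3450 genes with the lowest level and 0.124 in the 3450 with the highest. Across all genes the pair differences correlated at 0.056 between pairs 1 and 2, 0.255 between pairs 1 and 3 and 0.068 between pairs 2 and 3, a description over genes that are not independent and of pairs that share no array.

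**Figure D3:**
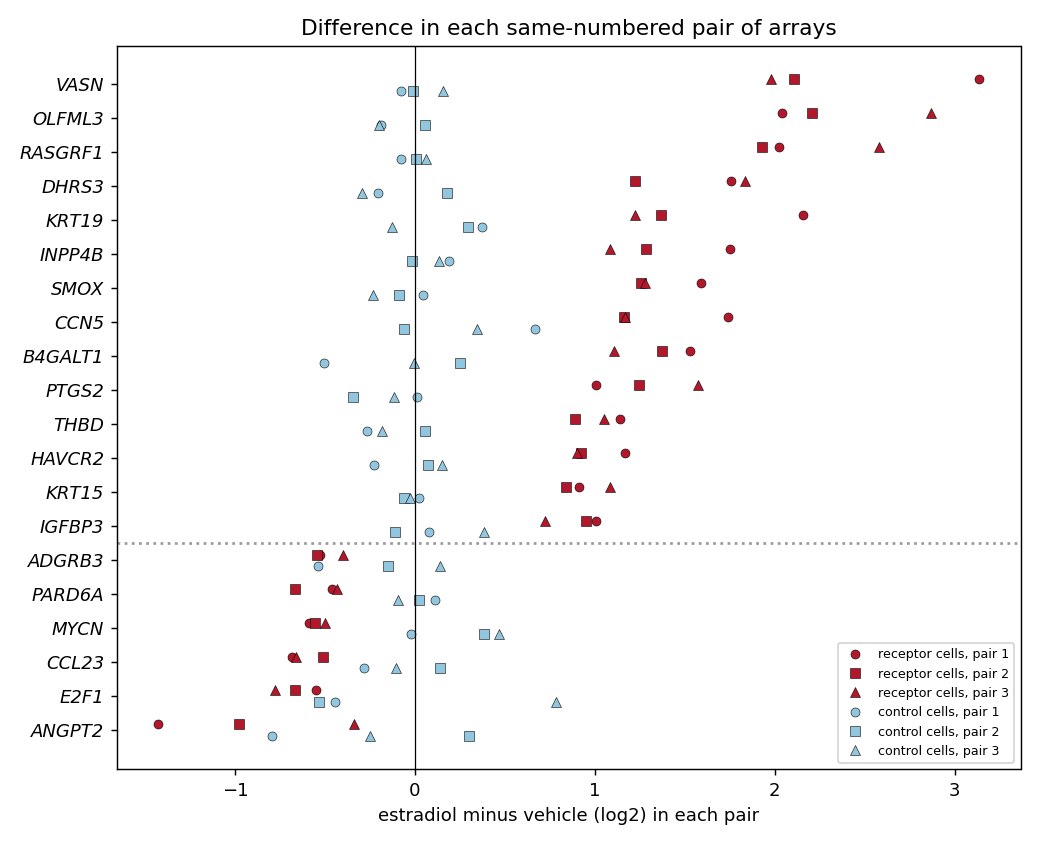
Difference between estradiol and vehicle (log2, horizontal axis) within each same-numbered pair of arrays for the 14 called genes (above the dotted line) and the 6 named lower genes (below it), receptor cells in red and control cells in blue. Receptor pairs of the called genes lie between 0.72 and 3.14, and control pairs scatter around 0.

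Control cells received the same hormone and were fitted with the same model on the same probes. No gene was called there (0% in either direction, smallest adjusted p = 0.725), with 924 genes at an unadjusted p under 0.05 (6.7%). None of the 14 genes had an unadjusted p under 0.05 in control cells, and none was higher in all 3 control pairs. Their control differences ran from -0.15 for PTGS2 to 0.32 for CCN5. The difference between the lines was tested itself, with all 12 arrays. It was called for 9 genes, all with a higher value in receptor cells (0.0652% of genes tested, with 7.8% at an unadjusted p under 0.05 in either direction), and 8 of these were among the 14. RASGRF1 (difference 2.18) and OLFML3 (2.48) had an adjusted p of 0.00561 in limma, and SMOX (1.47) of 0.0113. DHRS3 (1.71), VASN (2.39), THBD (1.16) and PTGS2 (1.43) had 0.0282, and KRT15 (0.97) had 0.0291. For INPP4B (adjusted p = 0.0656), B4GALT1 (0.0736), HAVCR2 (0.0774), KRT19 (0.151), IGFBP3 (0.225) and CCN5 (0.235) a difference between the lines was not called.

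Against the 6 control arrays, the estradiol arrays of receptor cells lay above all of them for 10 of the 14 genes. The exceptions were DHRS3, IGFBP3, PTGS2 and THBD. For THBD the receptor cells with vehicle lay below all control arrays, at 7.030 to 7.301 against control levels of 7.930 to 8.216, and with estradiol they lay among the control arrays. DHRS3 had the same order under vehicle. HAVCR2 and RASGRF1 lay above all control arrays already with vehicle, RASGRF1 being undetected on all 6 control arrays, as were OLFML3 and KRT19. The lines differ in more than the receptor, since each was made by its own transfection and selection, and these cannot be told apart here.

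**Figure D4:**
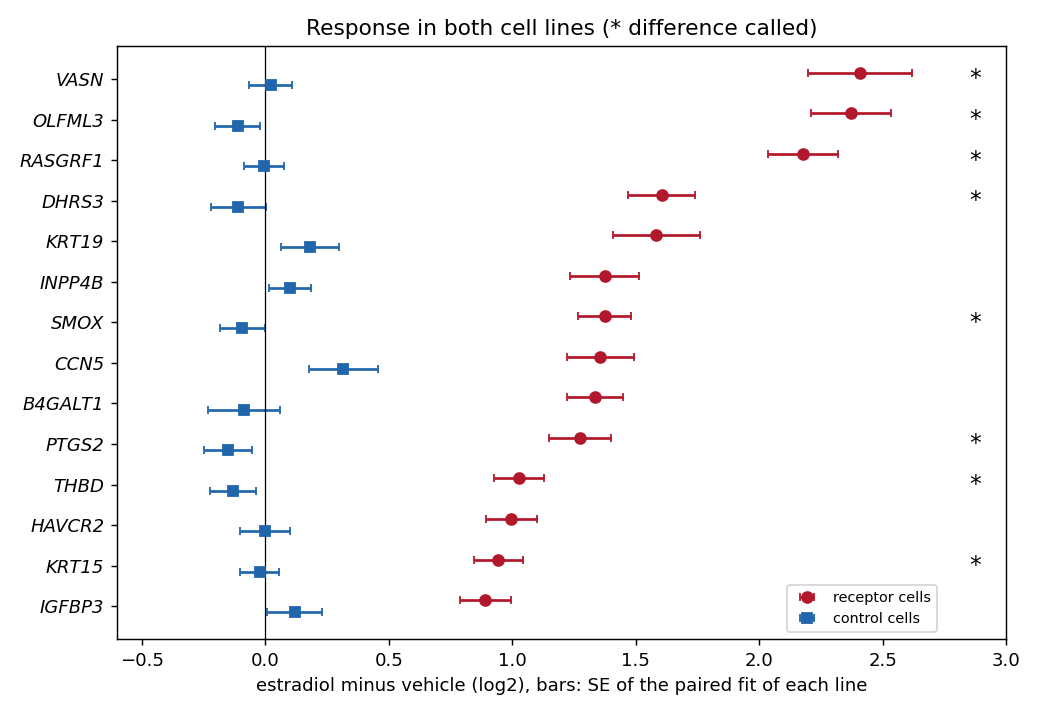
Estradiol minus vehicle (log2, horizontal axis) for the 14 called genes in receptor cells (red circles) and control cells (blue squares), with bars for the SE of each line's paired fit (3 pairs each) and an asterisk where the difference between lines was called. Receptor values lie between 0.89 and 2.41, control values between -0.15 and 0.32.

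No gene passed the test on the lower side. The 6 lower genes with the smallest p, placeholder symbols such as LOC left out, are given as values. E2F1, a transcription factor of S-phase genes, had 5.184, 5.088 and 4.616 with estradiol and 5.736, 5.754 and 5.392 with vehicle, a difference of -0.66 ± 0.10 (limma, adjusted p = 0.112). E2F1 was detected on 2 of the 3 estradiol arrays, which leaves the size of that difference uncertain. The chemokine CCL23 had 5.583, 8.681 and 8.800 with estradiol and 6.268, 9.192 and 9.461 with vehicle, where replicate 1 lay far below the others under both treatments (difference -0.62 ± 0.10, limma adjusted p = 0.123). MYCN, a growth-promoting transcription factor, had 6.270, 5.098 and 5.021 with estradiol and 6.859, 5.652 and 5.523 with vehicle (-0.55 ± 0.09, limma adjusted p = 0.145). ANGPT2, an endothelial ligand that destabilises vessels, had 5.497, 5.275 and 5.599 with estradiol and 6.925, 6.252 and 5.936 with vehicle, without overlap (-0.91 ± 0.19, limma adjusted p = 0.234). The polarity protein PARD6A differed by -0.52 and the adhesion receptor ADGRB3 by -0.49. Calls on this side depended on the normalization and on how the spread was estimated. Without background correction 10 genes were called lower, and with an offset of 50 in the normalization 13 were. With a robust prior that follows the intensity, 19 genes were called lower, among them ANGPT2, CCL23, E2F1 and PARD6A, and 102 higher.

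Several genes that estradiol is known to act on in other cells gave no call. PGR, GREB1 and TFF1, classical targets in breast cells, and CYP1B1, an estrogen-metabolising enzyme, were not detected on any array and were not tested. NOS3, the endothelial nitric oxide synthase, had 10.001, 9.514 and 10.008 with estradiol and 9.877, 9.583 and 9.923 with vehicle, a difference of 0.05 ± 0.10 within the spread of the pairs. The cyclin CCND1 differed by 0.08 ± 0.10, the proliferation marker MKI67 by 0.12 ± 0.10, MYC by -0.03 ± 0.11 and the growth factor gene VEGFA by 0.21. The endothelial genes VWF and PECAM1 differed by -0.01 and 0.08, the flow-responsive factor KLF2 by 0.15 and the vasoconstrictor gene EDN1 by 0.14. SGK1 and FKBP5, both known as steroid-responsive, differed by -0.07 and 0.11, and the other estrogen receptors ESR2 and GPER1 by 0.16 and -0.11. ESR2 was detected on 2 estradiol arrays and 1 vehicle array of receptor cells, and GPER1 on 2 and 2. Both lay near background, which leaves the size of their differences uncertain.

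Gene lists were described by how many of the members tested passed an unadjusted p under 0.05, how many moved the same way in 3 of 3 pairs, and the median difference. Over all genes these were 3.85% higher and 3.66% lower, 13.2% higher and 14.6% lower in 3 of 3 pairs, and a median of -0.01. None of the members named below without a called fold passed the adjusted threshold, and they were picked after their values were seen. The lists themselves were chosen with earlier results of these data known, and several hold called genes. Their shares are therefore a description beside those of all genes, not an independent test. Of 22 estrogen-responsive genes tested, 8 were higher at the unadjusted threshold and 0 lower, 11 were higher in 3 of 3 pairs and 1 lower, and the median was 0.16. It was 0.23, 0.04 and 0.17 in pairs 1, 2 and 3, and 0.05 to 0.22 over the alternative settings. CCN5 was the called member. HSPB8, a small heat shock protein, had 6.108, 5.890 and 5.794 with estradiol and 5.378, 5.452 and 5.428 with vehicle, a difference of 0.51. The secreted hormone STC2 differed by 0.38, IGFBP4 by 0.38, the retinoic acid receptor RARA by 0.29, MYB by 0.32, FHL2 by 0.34 and SLC7A5 by 0.23. The list's median in control cells was -0.02.

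Of 10 genes of the insulin-like growth factor axis, 4 were higher and 1 lower at the unadjusted threshold, and the median was 0.20, with 0.04 to 0.26 over the alternative settings. IGFBP3 was called, the adaptor IRS2 differed by 0.36 and the IGFBP-cleaving protease PAPPA by -0.32. Of 37 genes of the TGF-beta and BMP pathway, 7 were higher and 0 lower at that threshold, but the median was 0.02. Besides VASN these included secreted inhibitors of the pathway. GREM1, which captures BMPs, had 5.331, 5.418 and 5.055 with estradiol and 4.707, 4.701 and 4.618 with vehicle. It was not above background on the 3 vehicle arrays and met the detection filter through its estradiol arrays alone. Its place among the 7 is therefore not independent of the filter. Its level with estradiol was at least 1.35-fold higher (limma, adjusted p = 0.146), the fold over the lowest detected level. In control cells GREM1 differed by 0.38 (limma, unadjusted p = 0.0295). A difference between the lines was not called for GREM1 (limma, adjusted p = 0.863). FST, which binds activin, differed by 0.57, the ligand BMP6 by 0.34, the coreceptor ENG by 0.29 and the repressor SKI by 0.26.

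Of 25 genes named as estrogen targets in vessels, 6 were higher and 4 lower at the unadjusted threshold, with a median of 0.08. THBD and PTGS2 were the called members. TNFAIP3, which restrains NF-kB signalling, differed by 0.45, HMOX1 by 0.35 and CXCL8 by 0.43, while the constitutive cyclooxygenase PTGS1 differed by -0.33 and apelin (APLN) by -0.25. The leukocyte adhesion receptor SELE, detected on the vehicle arrays alone, was at least 1.13-fold lower (limma, adjusted p = 0.54). It met the detection filter through those arrays only, which favours a lower value with estradiol. Among 29 genes of the NF-kB pathway 7 were higher and 2 lower, with a median of 0.06. TNIP1, a partner of TNFAIP3, had 10.519, 9.936 and 10.119 with estradiol and 9.351, 9.235 and 9.383 with vehicle, without overlap, and differed by 0.87 ± 0.12 (limma, adjusted p = 0.0817). TNFAIP2 differed by 0.41, BCL3 by 0.38, CXCL1 by 0.42 and TRAF1 by -0.36. Of 17 genes of vasoactive peptides and prostanoids, the prostaglandin transporter SLCO2A1 had 7.926, 5.405 and 5.615 with estradiol and 6.116, 4.739 and 4.582 with vehicle, a difference of 1.17 ± 0.20 (limma, adjusted p = 0.139) that was widest in replicate 1. SLCO2A1 was detected on 1 of the 3 vehicle arrays, which leaves the size of that difference uncertain. The prostaglandin receptor PTGER4 differed by -0.38.

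Interferon-stimulated genes leaned the other way. Of 41 tested, 22 were lower and 2 higher in 3 of 3 pairs, 10 were lower and 1 higher at the unadjusted threshold, and 0 were called. The median was -0.13, and it was -0.16, -0.15 and -0.11 in pairs 1, 2 and 3. In control cells, which carry no receptor vector, the median of the same genes was -0.11. IFIT1, an antiviral RNA-binding protein, had 9.901, 8.203 and 8.296 with estradiol and 10.144, 8.766 and 8.576 with vehicle, a difference of -0.36 that was smaller than the gap between replicate 1 and the other replicates. MX2 differed by -0.36, the viral RNA sensors IFIH1 and RIGI by -0.36 and -0.29, and IFI44L by -0.34. The exonuclease ISG20 was among the 8 members above 0, and at 0.55 the one of them at the unadjusted threshold. Whether the lean in receptor cells differed from that in control cells was not tested as a group.

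Lists of the protein-folding and oxidative responses had medians slightly above 0, and 0 of their members were called. Over all genes 6631 of 13800 were above 0. Of 27 genes of the unfolded protein response 22 were above 0, 3 of them at the unadjusted threshold, and the median was 0.10. The chaperone HSPA5 differed by 0.34, MANF by 0.26 and HYOU1 by 0.23. Of 24 NRF2 targets 21 were above 0, 2 of them at that threshold, and the median was 0.11, with 0.09, 0.11 and 0.13 in pairs 1, 2 and 3. Glutathione reductase (GSR) differed by 0.33. Of 35 genes of cholesterol and fatty acid synthesis 27 were above 0, and the median was 0.10. It was largest in replicate 1, with 0.31, -0.04 and 0.05 in pairs 1, 2 and 3.

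**Figure D5:**
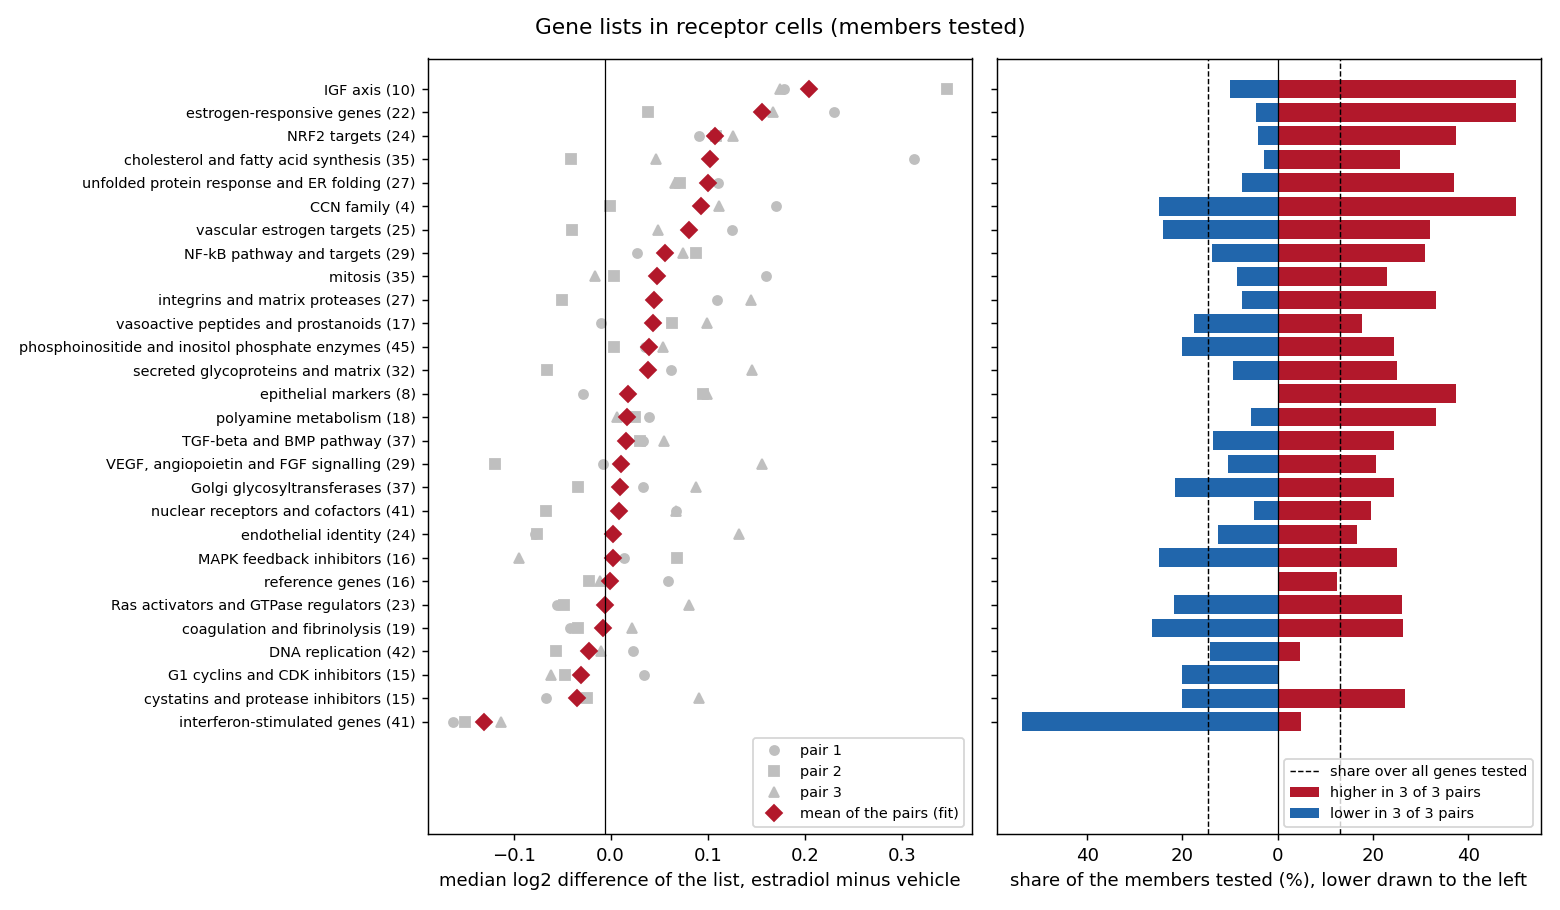
Left, the median log2 difference (estradiol minus vehicle) of the members tested in each of 28 gene lists, over the fit (diamonds) and in each pair (grey), with a line at the median of all genes. Right, the share of the members (%) higher (red) or lower (blue, drawn to the left) in 3 of 3 pairs, with dashed lines at 13.2% and 14.6%, the shares over all genes.

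Lists drawn around the other called genes had medians near that of all genes. Of 23 Ras activators and regulators RASGRF1 alone was higher at the unadjusted threshold and 4 were lower, RAPGEF5 at -0.38 and RASSF2 at -0.34 among them, and the median was -0.01. Of 16 feedback inhibitors of MAP kinase signalling 2 were higher and 4 lower. SPRY1 differed by 0.74, and SPRY2, DUSP5, DUSP6 and DUSP7 by -0.31, -0.30, -0.28 and -0.33. Of 45 phosphoinositide and inositol phosphate enzymes 6 were higher and 2 lower, with a median of 0.04. The inositol phosphate kinase ITPKC differed by 0.82, PLCG2 by 0.52, ITPK1 by 0.38 and the kinase subunit PIK3R1 by -0.35. Of 18 genes of polyamine metabolism SMOX was called, AMD1, which supplies the aminopropyl donor, differed by 0.23, and the rate-limiting ODC1 and SAT1 differed by -0.10 and -0.07. Of 37 Golgi glycosyltransferases 3 were higher and 2 lower, with CHSY1, which builds chondroitin chains, at 0.74 beside B4GALT1.

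Of 32 genes of secreted glycoproteins and matrix, 3 were higher and 1 lower at the unadjusted threshold, with COL18A1 at 0.38 and MGP at -0.29. Of 27 integrins and matrix proteases 5 were higher and 2 lower. TIMP3, which inhibits matrix proteases, had 9.252, 9.796 and 9.827 with estradiol and 8.600, 9.281 and 9.158 with vehicle, a difference of 0.61 in which every pair moved up although the groups overlapped. ITGA1 differed by 0.57 and MMP2 by 0.37, while MMP1 and MMP10 differed by -0.49 and -0.39. Among 15 cystatins and other protease inhibitors, CST1 had 10.040, 10.430 and 10.503 with estradiol and 7.779, 9.406 and 9.653 with vehicle, a difference of 1.38 ± 0.25 (limma, adjusted p = 0.16) with the widest step in replicate 1. CST4 differed by 1.03 ± 0.16 (limma, adjusted p = 0.117). CST1 and CST4 are close relatives whose probes may share signal.

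Cell identity and growth lists had medians near that of all genes. Of 24 endothelial genes 4 were higher and 2 lower at the unadjusted threshold, with a median of 0.00. SOX17 differed by 0.45, CD34 by 0.37 and LYVE1 by -0.49. Of 29 genes of VEGF, angiopoietin and FGF signalling 4 were higher and 1 lower, PDGFB at 0.52 and SEMA3A at 0.47 among the higher, and the median was 0.01. Of 19 genes of coagulation and fibrinolysis 3 were higher and 1 lower, with a median of -0.01. None of 35 mitosis genes passed the unadjusted threshold in either direction. Of 42 DNA replication genes 1 was lower, E2F1, and of 15 G1 cyclins, CDK inhibitors and their regulators 1, MYCN. Of 41 nuclear receptors and cofactors 2 were higher and 0 lower, with a median of 0.01, and of 16 reference genes none passed in either direction. The 4 members of the CCN family tested had a median of 0.09, and CCN5 was the called one. In 16 further lists the medians lay between -0.10 and 0.08 and 0 members were called.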

How the data were processed

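RNA from 12 samples was measured on Illumina BeadChips. The deposited file of non-normalized values held the authors' summary intensity of each probe and its detection p-value. The authors also deposited normalized intensities, for which the submitters' processing notes name lumi (version not given in the sources used here), and these were used as an alternative. Of 47322 probes, 47321 had values on all arrays (CDC25C lacked 4). The log2 values were computed here from the intensities that the authors deposited, for all 12 arrays together, by neqc in limma 3.58.1 (R 4.3.3), which takes the background from the detection p-values, equalises quantiles and adds an offset of 16. Symbols were updated from a RefSeq gene table (27035 current, 4675 updated, 12341 kept as filed, 3270 without a symbol).

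Probes with a detection p under 0.05 on at least 3 of the 6 receptor arrays were kept (19098), and each gene took its probe with the highest mean (13800 genes, 3304 with several probes). The paired limma model had the replicate number as a block (2 residual and 5.53 prior degrees of freedom), two-sided moderated tests and Benjamini-Hochberg adjustment over all genes. The pairing was taken from the replicate numbers in the labels and checked by the correlations of deviations given in the report. The control response used the same model, and the difference between lines 1 model over 12 arrays with a block per line and number. Precision is limited by the number of arrays and, for dim probes, by the background. Figures used matplotlib 3.10.9.

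The rule for named genes took the 15 highest and 15 lowest called folds, the 6 smallest p in a direction with fewer than 6 calls (both without placeholder symbols such as LOC), the 3 called members of each list with the smallest p, a set of well-known estrogen and endothelial genes, and the 6 smallest p for the difference between lines. Other list members and PC were named after their values were seen. The comparison, members and lists were chosen with earlier results of these data known. Alternatives covered the pairing, the arrays in the fit, normalization, offset, filter, probe choice, moderation and leaving out each replicate.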

Additional observations from a re-analysis of the deposited data

Results flagged for a closer look

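The response to estradiol differed between receptor and control cells for 9 genes by the test of that difference (limma, adjusted p under 0.05). The difference, receptor minus control, was 2.48 log2 for OLFML3, 2.39 for VASN, 2.18 for RASGRF1, 1.71 for DHRS3, 1.47 for SMOX, 1.43 for PTGS2, 1.16 for THBD and 0.97 for KRT15, all called higher in receptor cells. The ninth, PC, encodes pyruvate carboxylase, which feeds the citric acid cycle, and was called in neither line alone. Its difference was 0.99, made of 0.39 ± 0.10 (SE) in receptor cells and -0.60 ± 0.09 in control cells. PC had 6.596, 6.338 and 6.097 with estradiol and 6.275, 5.913 and 5.666 with vehicle in receptor cells, and 5.001, 5.291 and 5.139 with estradiol and 5.685, 5.735 and 5.797 with vehicle in control cells. All 3 receptor pairs were higher and all 3 control pairs lower. In limma its adjusted p was 0.0291 for the difference, 0.403 in receptor cells and 0.725 in control cells.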

How the results depend on the processing

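Counts of genes called higher and lower with estradiol in receptor cells were 14 and 0. They were 14 and 0 with normalization of the 6 receptor arrays alone and with detection on 3 of 12 arrays, and 13 and 0 with averaged probes. Higher and lower calls were 1 and 0 without the replicate block (180 and 75 at an unadjusted p under 0.05 in limma), 22 and 0 with it as a random effect, 46 and 1 with all 12 arrays, 63 and 10 without background correction, 66 and 12 in the deposited normalized table, 84 and 13 with an offset of 50, 27 and 1 with detection on all 6 arrays, 102 and 19 with an intensity trend and robust prior together, and 0 and 0 with no filter on dim probes (950 and 928 at an unadjusted p under 0.05 in limma, 30934 genes tested). Leaving out a replicate gave 0 (replicate 2, with 653 and 687 at an unadjusted p under 0.05 in limma) to 23 higher and 0 to 1 lower. Control cells had 0 and 0, but 3 and 1 without background correction, in the deposited table and with the trend and robust prior. The difference between lines had 9 and 0, then 5 and 0 without the replicate block, 56 and 9 without background correction, 56 and 8 in the deposited table, 56 and 11 with the trend and robust prior, and 2 to 4 higher on leaving out a replicate. All 14 genes kept a positive difference under every alternative that tested them, of which detection on all 6 arrays tested 12. All 14 kept the call without background correction, in the deposited table and with the trend and robust prior, and all lost it with no filter (highest adjusted p = 0.234). IGFBP3 and KRT15 lost it with the random effect, and IGFBP3 without replicate 1 (adjusted p = 0.116). The mean same-numbered correlation in receptor cells was 0.625, and 0.694 in the deposited table. Causes were not tested. Pair differences spread more for dim than for bright genes.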

Other observations

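Further genes were higher with estradiol in receptor cells when the spread was estimated from all 12 arrays with a block for each line and replicate number. That fit called 46 genes higher (0.333% of 13800) and 1 lower (0.00725%), with the 14 genes of the report among the higher. It assumes that receptor and control arrays share 1 spread within pairs, and the genes below were picked after their values were seen. SELP, the platelet and endothelial adhesion receptor P-selectin, had 6.750, 6.001 and 6.113 with estradiol and 5.946, 5.402 and 5.310 with vehicle. The step was alike in the 3 pairs, at 0.80, 0.60 and 0.80, and the adjusted p was 0.00927 in limma's 12-array fit, against 0.0782 in the 6-array fit. In control cells SELP differed by 0.23, and a difference between the lines was not called (limma, adjusted p = 0.29). CUEDC1 had 10.822, 10.549 and 10.363 with estradiol and 10.032, 9.808 and 9.697 with vehicle, without overlap, a difference of 0.73 ± 0.08 (SE, limma 12-array fit, adjusted p = 0.00795). In control cells it differed by 0.00, but a difference between the lines was not called (limma, adjusted p = 0.121). The adjusted p for CUEDC1 in limma's 6-array fit was 0.0696.

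BCAR1, a docking protein of integrin and growth factor signalling, had 10.027, 9.997 and 10.249 with estradiol and 9.030, 9.502 and 9.396 with vehicle. Its estradiol arrays lay near the control arrays, which spanned 9.898 to 10.339, and its vehicle arrays below them (difference 0.78, limma 12-array fit, adjusted p = 0.0459). The secreted protein C1QTNF6 differed by 0.98 (adjusted p = 0.0144 in that limma fit), the tumour necrosis factor receptor TNFRSF1B by 0.91 (0.0482), the scaffold protein NHERF1 by 0.69 (0.0358) and the glycolysis regulator PFKFB3 by 0.62 (0.04). The gene called lower was CCL23 (adjusted p = 0.0481 in that limma fit).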
